A study of Mus musculus with 24 samples.

Results

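Split blastocysts, each grown from a single blastomere of a mouse late two-cell embryo, were compared with intact morulae to ask which programmes of the blastocyst had been turned on or off in the split embryos relative to an undivided embryo at the stage before. The comparison used 11 of the 24 single-embryo libraries of the series, chosen by their labels. These were 6 split blastocysts, which formed 3 sister pairs, and 5 intact morulae. All embryos were of the ICR strain, were made by in vitro fertilization and were kept at reduced oxygen. The split embryos came from fully cleaved late two-cell embryos that were placed in G-PGD biopsy medium, divided mechanically by micromanipulation and cultured one blastomere at a time in a modified sodium hyaluronate gel. The intact morulae were never divided and were grown in parallel. The labels call their conditions matched but name neither the gel nor the biopsy medium for them. Stage and the handling of split embryos therefore differed together between the groups and cannot be told apart here. Intact blastocysts (3 embryos, from the same kind of culture as the morulae) are given beside the results so that a reader can see where the 2 kinds of blastocyst differed. The labels named no genotype, age in hours, sex, litter or batch.

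At the morula stage, outer cells of the mouse embryo become polarised, and Hippo signalling is switched off in them, so that YAP and TEAD4 can turn on trophectoderm genes such as Cdx2 and Gata3. In the blastocyst the trophectoderm forms a sealed epithelium of keratin filaments, desmosomes and tight junctions, and pumps sodium and water into the cavity. The inner cell mass keeps pluripotency factors and later separates into epiblast, marked by Nanog and Sox2, and primitive endoderm, marked by Gata6, Gata4 and Sox17. In a library of a whole embryo, a difference in the number of cells of a type and a difference in RNA per cell cannot be told apart.

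The results turn on a small group of trophectoderm regulators and on enzymes of sterol synthesis, and the 250 bases before the start site of 6 of these genes are printed here so that the promoters can be set beside the expression values. They are reference sequences of RefSeq in the build GRCm38.p6. The expression files used GRCm39, so the positions given belong to GRCm38.p6 alone. Sequences run 5′ to 3′ toward the gene. In the trophectoderm genes, capitals mark matches to the CCAAT box (CCAAT, bound by NF-Y), the AP-2 motif (GCCNNNGGC, the same on both strands) and the TEAD motif (GGAATG), and both strands were searched. Gata2 (chr6:88198414-88198663, plus strand, the second of its start sites) had CCAAT boxes beginning 83 and 45 bases before the start, an AP-2 match at 222 and a TEAD match at 120. Its first start site held none of the motifs searched. Gata3 (chr2:9878601-9878850, minus strand) had AP-2 matches at 246, 231 and 221 bases. Id2 (chr12:25096093-25096342, minus strand) had CCAAT boxes at 159, 120 and 76 bases.
Gata2: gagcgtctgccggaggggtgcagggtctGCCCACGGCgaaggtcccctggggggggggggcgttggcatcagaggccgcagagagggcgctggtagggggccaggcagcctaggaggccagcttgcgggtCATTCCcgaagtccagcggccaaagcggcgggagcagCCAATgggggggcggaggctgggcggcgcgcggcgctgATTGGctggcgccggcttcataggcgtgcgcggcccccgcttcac
Gata3: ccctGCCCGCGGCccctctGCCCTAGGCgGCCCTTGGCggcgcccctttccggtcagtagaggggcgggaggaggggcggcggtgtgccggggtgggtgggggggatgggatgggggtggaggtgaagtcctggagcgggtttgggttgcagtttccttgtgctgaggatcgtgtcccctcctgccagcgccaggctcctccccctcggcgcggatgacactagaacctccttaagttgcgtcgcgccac
Id2: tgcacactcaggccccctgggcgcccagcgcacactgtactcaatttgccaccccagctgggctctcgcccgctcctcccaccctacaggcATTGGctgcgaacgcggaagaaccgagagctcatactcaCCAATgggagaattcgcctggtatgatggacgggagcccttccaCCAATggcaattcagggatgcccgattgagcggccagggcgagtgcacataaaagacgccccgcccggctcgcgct

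In the sterol genes, capitals mark the CCAAT box, and the sterol regulatory element searched (TCACNCCAC) had no match in these windows. Mvd (chr8:122443423-122443672, minus strand) had CCAAT boxes 60 and 27 bases before the start. Lss (chr10:76531355-76531604, plus strand) had a CCAAT box at 62 bases. Mvk (chr5:114444019-114444268, plus strand) had CCAAT boxes at 173, 120, 67, 50 and 14 bases, and the first of them runs into an AP-2 match at 169 that is not capitalised.
Mvd: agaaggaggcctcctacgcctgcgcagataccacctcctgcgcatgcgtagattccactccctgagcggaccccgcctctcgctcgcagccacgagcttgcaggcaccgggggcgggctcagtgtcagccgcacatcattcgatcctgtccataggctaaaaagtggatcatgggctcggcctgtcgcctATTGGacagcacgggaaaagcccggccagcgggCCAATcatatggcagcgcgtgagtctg
Lss: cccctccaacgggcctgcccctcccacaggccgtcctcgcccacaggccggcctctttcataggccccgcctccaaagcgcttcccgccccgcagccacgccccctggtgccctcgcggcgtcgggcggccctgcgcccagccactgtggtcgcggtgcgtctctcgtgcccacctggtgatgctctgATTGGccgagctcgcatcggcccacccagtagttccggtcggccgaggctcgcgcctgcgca
Mvk: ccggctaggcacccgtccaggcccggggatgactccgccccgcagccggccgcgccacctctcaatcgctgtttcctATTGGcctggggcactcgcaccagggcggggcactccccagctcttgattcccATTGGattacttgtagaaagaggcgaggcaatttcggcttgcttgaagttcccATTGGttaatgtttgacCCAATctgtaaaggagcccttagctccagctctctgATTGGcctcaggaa

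Of 21 sterol and fatty acid genes that rose, 16 had a promoter window, and 13 of these held a CCAAT box. Of the 13 other tested members with a window, 10 held one. The box was present in 41.0% of the 11385 tested genes with a window and in 33.8% of all 32851 windows. The sterol regulatory element as spelled was found in 0 of the 16 and 1 of the 13, against 1.34% of tested genes. An AP-2 match was found in 2 of the 3 trophectoderm transcription factor genes that rose, in 4 of the 14 other tested members with a window, and in 22.6% of tested genes. These matches describe letters in the reference and were not tied to binding.

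The split blastocysts held 13439059 to 25228658 counted reads each and the morulae 13888842 to 19014808. Sister embryos share a zygote, so the counts of each pair were summed, which left 3 split units against 5 morulae. The labels do not say whether the embryos came from separate matings, and p-values here speak only of the spread among units. For edgeR these are the 18 units of all 5 groups, fitted together, except where a fit of the 2 compared groups alone is named. The permutation tests use the 8 units alone. Pearson's r of log2 expression across genes was 0.844 to 0.912 between sisters (3 pairs), 0.848 to 0.91 between split blastocysts that were not sisters, 0.857 to 0.871 between morulae, and 0.79 to 0.842 between a split blastocyst and a morula. Embryo 1 of pair 2 stood apart from the other split blastocysts, with r of 0.844 to 0.855 to each of them, its own sister included. Y-linked reads were at 2666 and 3493 counts in both embryos of pair 2 and at 0 to 4 in the other 4, whereas 4 of 5 morulae had 2448 to 4316. Morula 5 had 0 Y-linked counts and 2560 Xist counts. The makeup by sex therefore differed between the groups, and its part in the results was not tested beyond leaving out each unit.

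Shares of counts also moved with the groups. Mitochondrially encoded protein genes took 2.08%, 1.59% and 1.42% of counts in the pairs and 2.7% to 5.06% in the morulae (3.99% ± 0.852, SD, n = 5), with no overlap (exact permutation test, two-sided, p = 0.0357, the smallest this design allows, adjusted p = 0.0595 over 5 such measures). The 50 most abundant genes took 18.3%, 19.6% and 17.1% in the pairs and 23.9% ± 1.04 in the morulae (SD, n = 5, same exact permutation test, p = 0.0357, adjusted p = 0.0595). The number of genes detected at equal depth was 13649, 12406 and 13735 against 12791 ± 321 (SD, n = 5), which overlapped.

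Base composition also moved with the groups. Weighted by counts, mean transcript GC was 48.2% to 48.7% in the split blastocysts and 46.6% to 46.9% in the morulae, while intact blastocysts were at 47.1% to 47.9% and split morulae at 47.2% to 47.9%. Genes that rose had a median transcript GC of 54.0% and genes that fell 44.4%, against 49.0% over all tested genes. In transcripts under 40% GC, 0.166% of genes rose and 11.1% fell. Over 55% GC, 7.09% rose and 1.03% fell. The part of base composition in the results was addressed by a fit with the trend over GC removed within every unit, added after seeing the data and called the GC-adjusted fit, whose counts are given for most of the groups below.

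**Figure D1:**
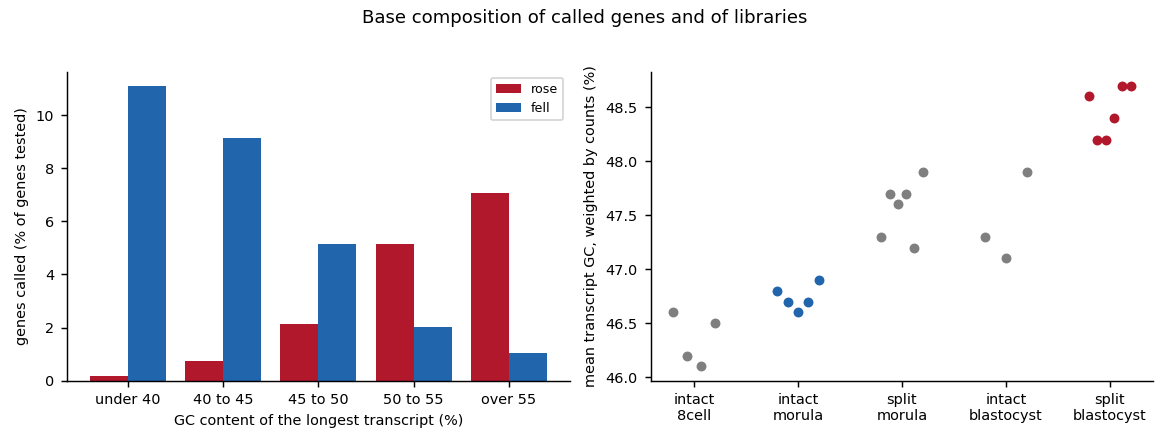
Left, percent of tested genes that rose (red) or fell (blue) in 5 bins of transcript GC content, from 0.166% rising and 11.1% falling under 40% GC to 7.09% and 1.03% over 55%. Right, mean transcript GC weighted by counts in every embryo of the series by group, where the 6 split blastocysts (48.2% to 48.7%) lie above the 5 intact morulae (46.6% to 46.9%).

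Of 15875 genes tested with edgeR's quasi-likelihood test, 538 rose (3.39%) and 760 fell (4.79%) in split blastocysts at a Benjamini-Hochberg adjusted p under 0.05, and called genes are those that passed it. The median size of a called change was 2.73-fold, and 224 genes rose and 167 fell by 4-fold or more. Among the 1298 called genes, 62 that rose had 0 counts in all 5 morulae, and 17 that fell had 0 counts in all 3 pairs. Over all 15875 tested genes, 1254 had 0 counts in only 1 of these 2 groups, so such genes were not more common among the calls. The units did not overlap in 1247 of the 1298 called genes, compared with 24.7% of all tested genes. The calls were made on these same units, so this describes them and gives no separate support. Rising genes made up 41.4% of the calls. This split depends on the scaling: with library totals alone it was 62.4%, on the deposited TPM values 70% (limma), and in the GC-adjusted fit 35.8%. With library totals alone the median over all tested genes moved from 0.08 to 0.31 on the log2 scale, so changes are to be read relative to that median. Without pair 3, the calls dropped to 201 and 349, without pair 1 to 275 and 445, and without pair 2 to 333 and 521. The GC-adjusted fit called 321 genes up and 576 down of 15576 tested and kept 704 of the 1287 calls it could test. Fitted on split blastocysts and morulae alone, 1155 genes rose and 1154 fell of 12872 tested. On TPM values (limma) 1720 rose and 736 fell of 12003. Counts of list members below are to be read beside these totals, and beside 3.39% and 4.79% in the main fit of all 5 groups.

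Genes named below were picked by a rule given with the processing, and others, among them most sterol genes, Tspan8, Jup, Pdpn, S100a11, Elf5, Aqp8, Gpi1, Mcm5, Ascl2 and the genes named as not passing outside the lineage factors, were chosen after their values were seen. Of 26 trophectoderm transcription factors tested, 3 rose (Gata2, Gata3 and Id2) and 0 fell, and the median log2 difference was 1.91, compared with 0.08 over all tested genes. Gata2, a GATA factor that drives trophoblast genes, was at 20.3, 14.6 and 27 CPM (counts scaled by library size, with TMM factors) in pairs 1, 2 and 3. In morulae 1 to 5 it was at 0, 0.0663, 0, 0 and 0 CPM, a single count in all. Every pair was far above every morula. The ratio of summed counts was 1668, with a 95% counting interval of 299 to 65899, and the adjusted p was 0.000406 (edgeR's quasi-likelihood test, Benjamini-Hochberg adjusted, as for all adjusted p-values below unless another tool is named). Gata3, which acts beside Cdx2 in specifying the trophectoderm, was at 652, 980 and 785 CPM in the pairs and at 200, 253, 277, 141 and 181 CPM in the morulae. It was thus well expressed in morulae and rose by 1.94 ± 0.48 (log2 fold change ± SE, adjusted p = 0.0181). Id2, an inhibitor of basic helix-loop-helix factors that marks outer cells, was at 1444, 887 and 1061 CPM and at 16.3, 33.8, 115, 47.7 and 71.3 CPM. It rose by 4.31 ± 1.05 (adjusted p = 0.0209), with no overlap.

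The calls of Gata3 and Id2 rested on few units. Gata3 lost its call without pair 2 (adjusted p = 0.0827) or pair 3 (0.0753). Id2 lost it without morula 2 (0.0548), morula 4 (0.05), pair 1 (0.0737) or pair 3 (0.0704). In the GC-adjusted fit all 3 stayed called, at 9.57, 1.84 and 4.56 for Gata2, Gata3 and Id2.

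Cdx2 and Eomes did not pass in the 5-group fit although their units did not overlap. Cdx2, the factor that commits cells to the trophectoderm, was at 20.2, 29.4 and 22.7 CPM in the pairs and at 0.704, 0.0663, 0.461, 3.66 and 2.43 CPM in the morulae (log2 difference 4.03 ± 1.60, adjusted p = 0.129). Eomes, needed for trophoblast development, was at 24.9, 30.6 and 33.2 CPM against 1.64, 0.994, 0.154, 9.29 and 1.16 CPM (3.48 ± 1.16, adjusted p = 0.0701). Fitted on split blastocysts and morulae alone, without the spread of the other 3 groups, Cdx2 passed (adjusted p = 0.0096) and so did Eomes (adjusted p = 0.0211), and 10 of the 26 factors rose. Tfap2c, an AP-2 factor already active in the morula, was at 44, 83.1 and 58.8 CPM and at 42.7, 57, 54.8, 98.3 and 39 CPM, with overlapping units. Its difference was 0.09 ± 0.35, and that sign turned in the GC-adjusted fit (-0.26). Elf5, a later trophoblast factor, was at 0, 0 and 0.942 CPM in the pairs and had a single count among the morulae, at 0.0663 CPM in morula 2.

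**Figure D2:**
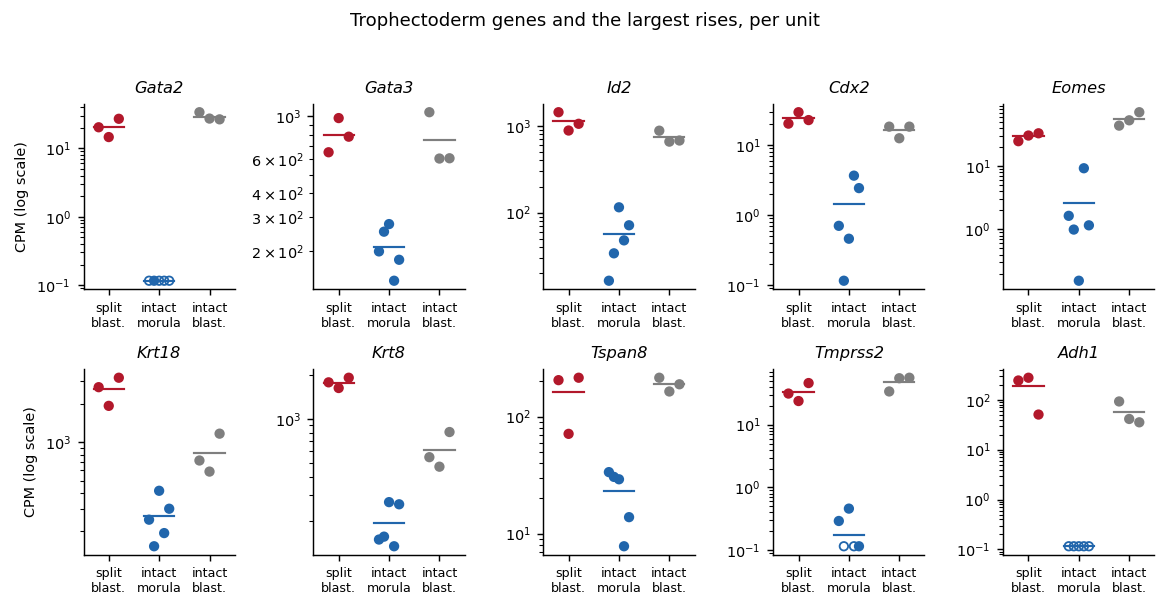
CPM on a log scale for 10 genes in each unit of split blastocysts (3 summed sister pairs, red), intact morulae (5, blue) and intact blastocysts (3, grey), with a line at each mean. Open circles are units with 0 counts, drawn at the floor of 0.116 CPM like any value below it, and for all 10 genes every split pair lies above every morula.

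Of 32 tested epithelial and surface genes of the trophectoderm, 10 rose and 0 fell, and the median difference was 2.05. Krt18, a keratin of the first epithelium, was at 2693, 1923 and 3193 CPM in the pairs and at 247, 153, 416, 194 and 301 CPM in the morulae. It rose by 3.31 ± 0.53 (adjusted p = 0.000958) with every pair above every morula, and stayed called in the GC-adjusted fit (2.72). Krt8, its filament partner, was at 1772, 1621 and 1905 CPM against 150, 157, 270, 135 and 261 CPM. Its difference of 3.18 ± 0.98 missed the threshold in the 5-group fit (adjusted p = 0.065) and passed with the 2 groups alone (1.7e-05). Fabp3, a fatty acid binding protein, was at 1431, 1105 and 1448 CPM against 248, 247, 158, 240 and 190 CPM. It rose by 2.62 ± 0.37 (adjusted p = 0.000197). Tspan8, a tetraspanin of the cell surface, was at 205, 71.2 and 215 CPM against 33.5, 30.5, 29.1, 7.78 and 13.8 CPM (2.83 ± 0.61, adjusted p = 0.00561). Pair 2 was the lowest of the 3 pairs for Krt18, Fabp3 and Tspan8, and still above all 5 morulae.

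Of the remaining members of that list that rose, Cldn7, a claudin of tight junctions, was at 424, 274 and 303 CPM against 96.4, 125, 144, 116 and 129 CPM (1.45 ± 0.29, adjusted p = 0.00274). Its call ended in the GC-adjusted fit (0.84, adjusted p = 0.105). Dppa1, a surface protein of early embryos, was at 1001, 823 and 784 CPM against 42.1, 79.8, 176, 30.4 and 86.6 CPM (3.39 ± 0.83, adjusted p = 0.0206). Without pair 1, 2 or 3 its adjusted p was 0.0752, 0.0564 or 0.0723. The calls of Lgals3, Jup, Pdpn and S100a11 were each lost when any of several units was left out, with adjusted p of up to 0.136, 0.119, 0.195 and 0.119. The number of members called was 4 without pair 3, 5 without pair 1 and 6 without pair 2. It was 5 with the replicate numbers as a block, 6 in the GC-adjusted fit, 3 with both, 25 with the 2 groups alone and 26 on TPM values (limma). The direction held throughout, with 0 members falling in any setting run.

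Of 29 tight and adherens junction genes, 2 rose (Cldn7 and F11r) and 0 fell, 24 had a higher fitted value, and the median was 0.60. F11r, the junction adhesion molecule JAM-A, was at 309, 245 and 355 CPM in the pairs and at 114, 81.3, 101, 56.6 and 156 CPM in the morulae. It rose by 1.58 ± 0.34 (adjusted p = 0.00447) with no overlap. The junction genes Cgn (-0.14 ± 0.61), Tjp1 (0.36 ± 0.38), Ocln (-0.63 ± 0.58) and Cdh1 (0.10 ± 0.39) did not pass, and the sign for Cgn turned with library totals alone. On TPM values (limma) 10 of the junction genes rose, with the 2 groups alone 8, and in the GC-adjusted fit 1.

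Among 17 genes of cavitation pumps and channels, 0 rose and 3 fell in the 5-group fit and in the GC-adjusted fit. With limma 3 rose and 3 fell both by voom and on TPM values, and on TPM values of all genes 4 rose and 3 fell. Slc12a2, a sodium, potassium and chloride cotransporter, was at 15.8, 15.9 and 3.11 CPM in the pairs and at 139, 84.6, 93.1, 169 and 107 CPM in the morulae. It fell by 3.35 ± 0.52 on the log2 scale (adjusted p = 0.000375), with pair 3 lowest. Gja1, the gap junction protein connexin 43, was at 1056, 1434 and 1133 CPM against 4784, 6802, 4383, 3834 and 4742 CPM, and fell by 2.02 ± 0.31 (adjusted p = 0.000297). Aqp9, a channel for water and glycerol, fell by 1.21 ± 0.30 (adjusted p = 0.0135), a call lost without pair 1 (0.0543) or pair 3 (0.0956). Atp1b1, the sodium pump subunit of the cavitating epithelium, was at 107, 63.7 and 84.7 CPM against 42.4, 17.6, 67.9, 9.16 and 38.5 CPM, with pair 2 below the highest morula (1.28 ± 0.82, adjusted p = 0.381). Aqp3 was at 150, 148 and 136 CPM against 277, 161, 206, 312 and 309 CPM, lower in all pairs without passing (-0.81 ± 0.83, adjusted p = 0.643). Aqp8, at 0 in all morulae, was at 1.91, 0 and 6.96 CPM and did not pass (adjusted p = 0.0887).

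In the epiblast and pluripotency list, 1 of 31 genes rose and 3 fell, beside 3.39% and 4.79% of all tested genes. With the 2 groups alone 6 rose and 4 fell, beside 1155 and 1154 of all 12872 genes tested there. On TPM values (limma) 7 rose and 3 fell, beside 1720 and 736 of 12003. In the GC-adjusted fit 0 rose and 3 fell. Fbxo15, a target of the pluripotency network, was at 333, 372 and 297 CPM in the pairs and at 1242, 1403, 1226, 1310 and 1369 CPM in the morulae. It fell by 1.97 ± 0.16 (adjusted p = 2.31e-07), every pair lying below every morula. Sall4, a zinc finger factor that activates Pou5f1, was at 452, 745 and 436 CPM against 1530, 1239, 1447, 1335 and 1313 CPM (fell by 1.33 ± 0.24, adjusted p = 0.00104). Dppa4 fell by 0.84 ± 0.16 (adjusted p = 0.00201). Utf1, a chromatin protein of pluripotent cells, was at 93.6, 70.5 and 183 CPM against 48.6, 32.1, 31.2, 30.9 and 23.9 CPM. It rose by 1.80 ± 0.34 (adjusted p = 0.00174), but not without pair 3 (0.0649) nor in the GC-adjusted fit (0.90, adjusted p = 0.0944).

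The core factors of the inner cell mass did not pass in the 5-group fit. Pou5f1 (Oct4) was at 41.9, 66.3 and 70.8 CPM in the pairs and at 18.3, 7.55, 15.3, 21.4 and 18.6 CPM in the morulae (1.88 ± 0.63, adjusted p = 0.07, and 0.00325 with the 2 groups alone). Every pair was above every morula, and the GC-adjusted difference was 1.25. Nanog was at 197, 261 and 156 CPM against 361, 254, 344, 389 and 299 CPM, so that pair 2 was above the lowest morula (-0.69 ± 0.69, adjusted p = 0.629). With the 2 groups alone Nanog passed as lower (0.0301). Sox2 was at 10.7, 6.37 and 18.2 CPM against 1.41, 2.32, 4.92, 2.29 and 0.347 CPM, without overlap and without passing (2.38 ± 1.09, adjusted p = 0.193). Fgf4, the signal from epiblast to primitive endoderm, overlapped between the groups, at 40.9, 66.8 and 69.5 CPM against 14 to 171 CPM. Klf4 and Klf2 also overlapped.

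Of 21 primitive endoderm genes, 2 rose and 0 fell, beside 3.39% and 4.79% of all tested genes. The balance depends on the fit: 1 rose and 2 fell in the GC-adjusted fit, 4 rose and 2 fell with the 2 groups alone, and 6 rose and 0 fell on TPM values (limma). Sparc, a matrix protein of the endoderm, was at 55.6, 33.6 and 94.6 CPM in the pairs and at 0.411, 0.398, 1.69, 0 and 2.14 CPM in the morulae. It rose by 6.04 ± 0.96 (adjusted p = 0.000335) and kept its call whichever unit was left out. P4hb, a chaperone of collagen folding, rose by 1.00 ± 0.24 (adjusted p = 0.0113), a call lost without pair 1 (0.0501) or pair 3 (0.147) and in the GC-adjusted fit (0.193). Gata6, the early regulator of this lineage, was at 63.4, 85.6 and 67.2 CPM against 114, 151, 110, 125 and 113 CPM, lower in every pair than in every morula. It did not pass (-0.77 ± 0.39, adjusted p = 0.23), and passed as lower with the 2 groups alone (0.0178) and in the GC-adjusted fit (-1.30, 0.0468). The later factors were near the floor: Sox17 was at 0, 2.31 and 3.15 CPM and at 0 in all morulae, and Gata4 was at 0.894, 0 and 1.43 CPM against 3.81 CPM in morula 1 and 0 in the others. Pdgfra was at 7.52, 15.4 and 22 CPM against 0.293, 4.97, 0, 0 and 0.984 CPM (3.58 ± 1.72, adjusted p = 0.213).

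Of 39 tested genes of sterol and fatty acid synthesis, 21 rose and 0 fell, with a median of 1.95, compared with 0.08 over all tested genes. The pathway builds cholesterol from acetyl-CoA through mevalonate and squalene, and its genes are known targets of the factor SREBF2. Members that rose included Acly and Acat2 at the start, Mvk, Pmvk, Mvd and Idi1 in the mevalonate arm, Fdft1, Sqle and Lss at squalene, and Cyp51, Msmo1, Nsdhl, Ebp and Dhcr7 after lanosterol. Lss, which closes the sterol ring, was at 228, 244 and 303 CPM in the pairs and at 27.1, 15.6, 20.6, 2.16 and 34.7 CPM in the morulae. It rose by 3.69 ± 0.60 (adjusted p = 0.000512), with the lowest pair far above the highest morula. Mvd, which makes isopentenyl diphosphate, was at 150, 176 and 216 CPM against 11.8, 15.3, 19.5, 8.18 and 15.1 CPM. It rose by 3.69 ± 0.87 (adjusted p = 0.0125), and 0.0564 without pair 3. Mvk was at 87.4, 39.2 and 123 CPM against 8.74, 3.84, 7.15, 9.94 and 4.75 CPM (3.59 ± 1.03, adjusted p = 0.0345). Its call was lost without any unit but pair 2, with adjusted p of up to 0.141.

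Other members, also chosen after their values were seen, had lower adjusted p-values. Sqle, squalene epoxidase, was at 420, 306 and 442 CPM in the pairs and at 46.9, 28.2, 78.2, 82.1 and 59.5 CPM in the morulae (2.72 ± 0.31, adjusted p = 1.08e-05). Fdft1, squalene synthase, was at 1036, 749 and 875 CPM against 192, 122, 97.9, 260 and 146 CPM (2.44 ± 0.29, adjusted p = 2.03e-05). Fasn, fatty acid synthase, was at 163, 154 and 191 CPM against 22.6, 11.2, 26, 36.8 and 17.5 CPM (2.89 ± 0.43, adjusted p = 0.00019). In each of these 3 the lowest pair stood above the highest morula. Cyp51 rose by 2.63 ± 0.37 (adjusted p = 0.00012) and Acly, which supplies acetyl-CoA, by 1.95 ± 0.26 (7.69e-05). All 5 kept their calls whichever unit was left out and in the GC-adjusted fit.

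Srebf2 itself was at 74.2, 71.1 and 74.5 CPM in the pairs and, in the morulae, at 15.1, 20.9, 21.8, 17.9 and 16.2 CPM and rose by 1.99 ± 0.60 (adjusted p = 0.0413). That call was lost whichever unit was left out (0.0663 to 0.122) and in the GC-adjusted fit (0.227). Insig1, which holds SREBF2 back when sterol is plentiful, was at 1590, 1661 and 2041 CPM against 668, 199, 631, 192 and 590 CPM and did not pass (1.95 ± 0.60, adjusted p = 0.0607). Scap, the escort of SREBF2, was at 9.57, 4.25 and 12 CPM against 1.79 to 13.6 CPM. Fads2, a desaturase, was at 5.1, 14.3 and 8.56 CPM and at 0 in all morulae, a call lost whichever unit was left out (0.0581 to 0.0747). The list held 11 rising members without pair 3, 13 without pair 1, 20 in the GC-adjusted fit, 29 with the 2 groups alone and 30 on TPM values (limma). None fell in any setting run.

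**Figure D3:**
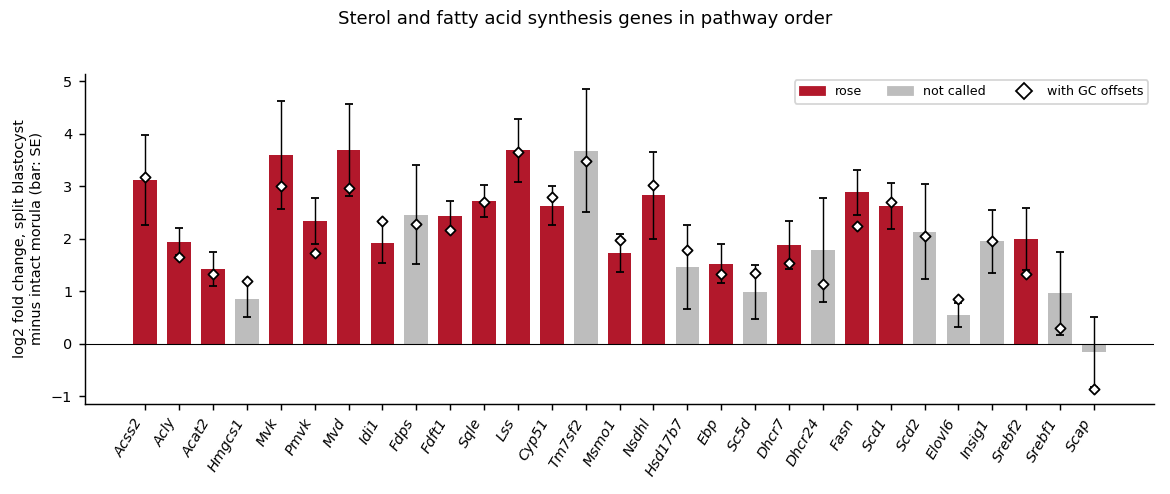
Log2 fold change (split blastocyst minus intact morula) with its SE for selected sterol and fatty acid synthesis genes in pathway order, red where called, and diamonds for the GC-adjusted fit. Among the called genes, Lss and Mvd stand highest at 3.69, and the diamond of Srebf2 lies below its bar (1.34 against 1.99).

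Of 30 genes of glycolysis and the pentose phosphate pathway, 10 rose and 0 fell, and the median was 1.44. Eno1, the enolase of most tissues, was at 364, 378 and 490 CPM in the pairs and at 43.3, 34.2, 52.9, 40.4 and 37.1 CPM in the morulae. It rose by 3.30 ± 0.34 (adjusted p = 3.16e-06), the pairs lying far above all morulae. Eno1b, a near-identical copy, rose by 3.65 ± 0.45 (adjusted p = 2.47e-05), and how reads shared between the copies were counted was not stated, so neither value is certain on its own. Pkm, pyruvate kinase, was at 239, 234 and 361 CPM against 37.6, 16.8, 31.5, 27.5 and 68.2 CPM (2.94 ± 0.50, adjusted p = 0.000812). Gapdh, which has many processed copies in the genome, was low in all units, at 26.3, 20.5 and 25 CPM against 3.4, 2.19, 1.31, 2.03 and 4.34 CPM. It rose by 3.17 ± 0.74 (adjusted p = 0.0106), and not without pair 1 (0.06) or pair 3 (0.0666). Gpi1, next to the start of the pathway, rose by 1.67 ± 0.38 (adjusted p = 0.00692).

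The glucose transporters Slc2a1 (1.60 ± 1.00, adjusted p = 0.364) and Slc2a3 (0.73 ± 0.42, adjusted p = 0.318), Hk2 (0.20 ± 0.39) and Ldha (1.14 ± 0.86, adjusted p = 0.483) did not pass. In the glycolysis list the calls numbered 5 without pair 3 and 7 in the GC-adjusted fit, 16 with the 2 groups alone and 17 on TPM values of all genes (limma), all rising.

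Of 83 nuclear genes of oxidative phosphorylation, 16 rose and 0 fell, with a median of 0.26. Cyc1, cytochrome c1 of complex III, was at 760, 489 and 713 CPM in the pairs and at 262, 235, 221, 225 and 234 CPM in the morulae (1.47 ± 0.18, adjusted p = 2.12e-05). Sdhc, a membrane anchor of complex II, was at 172, 93.5 and 147 CPM against 36.5, 39.4, 37.7, 37.5 and 37.6 CPM (1.87 ± 0.28, adjusted p = 0.000208). The 5 morulae lay between 36.5 and 39.4 CPM for Sdhc, and all pairs above them. Atp5d rose by 1.98 ± 0.34 and Ndufv1 by 1.58 ± 0.29 (adjusted p = 0.000743 and 0.00132). In the GC-adjusted fit 12 rose and 3 fell of 81, and without pair 1 or pair 3 the rises numbered 11. With library totals alone 29 rose, and 34 on TPM values (limma).

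Of 13 mitochondrially encoded genes, 4 fell and 0 rose, with a median of -0.41. mt-Cytb, cytochrome b of complex III, was at 6989, 6483 and 4741 CPM in the pairs and at 28926, 32267, 27777, 37862 and 18102 CPM in the morulae. It fell by 2.26 ± 0.23 (adjusted p = 3.16e-06), with no overlap. mt-Nd2, of complex I, fell by 1.80 ± 0.24 (adjusted p = 5.23e-05). mt-Nd5 fell by 0.74 ± 0.18 (adjusted p = 0.0133) and mt-Atp6 by 1.12 ± 0.29 (0.0186). mt-Nd5 lost its call without pair 2 (0.0841) or pair 3 (0.113), and mt-Atp6 without pair 2 (0.0758) or pair 3 (0.151). In the GC-adjusted fit mt-Cytb fell by 1.68, 2 genes fell, 1 rose and the median turned to 0.33, so a fall of the set as a whole depends on that choice. Near-identical nuclear copies of these genes make their counts uncertain.

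Of 54 lysosome and endocytosis genes, 10 rose and 3 fell, with a median of 0.49. In the GC-adjusted fit 8 rose and 3 fell, and on TPM values (limma) 20 rose and 2 fell. Psap, the precursor of lysosomal activators, was at 230, 235 and 309 CPM in the pairs and at 67.6, 56.2, 54.6, 72 and 75.9 CPM in the morulae. It rose by 1.99 ± 0.35 (adjusted p = 0.000941), and Hexa, a hexosaminidase subunit, by 2.45 ± 0.46 (adjusted p = 0.00142). Ctsc, a cathepsin, was at 477, 598 and 477 CPM against 2052, 1592, 1491, 1902 and 1709 CPM and fell by 1.76 ± 0.22 (adjusted p = 2.7e-05). Rab5a, a GTPase of early endosomes, fell by 2.35 ± 0.27 (adjusted p = 1.16e-05). Its relative Rab5c rose by 1.64 ± 0.50 (adjusted p = 0.0428), a call lost without any unit but morula 3, with adjusted p of up to 0.143, and in the GC-adjusted fit (0.183).

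Of 28 genes of lipid uptake, transport and droplets, 3 rose and 2 fell, and 3 and 3 in the GC-adjusted fit. On TPM values (limma) 8 rose and 2 fell, and without pair 3 only 1 rose. Acsl4, which activates long polyunsaturated fatty acids, was at 158, 143 and 166 CPM in the pairs and at 1323, 1047, 1160, 1330 and 1522 CPM in the morulae. It fell by 3.04 ± 0.40 (adjusted p = 0.000116), with all pairs well below the morulae. Apoe, a carrier of cholesterol, was at 249, 245 and 581 CPM against 63.5, 51.8, 5.84, 106 and 25.1 CPM. It rose by 2.83 ± 0.61 (adjusted p = 0.00655), but not without pair 3 (0.0573) nor in the GC-adjusted fit (0.0511). Acadm, of fatty acid oxidation, fell by 1.11 ± 0.18 (adjusted p = 0.000387). Fabp3 is given above, and Hadha rose by 1.49 ± 0.34 (adjusted p = 0.00778, and 0.0632 without pair 3).

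Of 39 stress and antioxidant genes, 6 rose and 1 fell, and 8 and 1 in the GC-adjusted fit. With the 2 groups alone 15 rose and 1 fell. Hspa5, the main chaperone of the endoplasmic reticulum, was at 1061, 833 and 1190 CPM in the pairs and at 349, 258, 306, 379 and 386 CPM in the morulae (1.62 ± 0.20, adjusted p = 2.39e-05). Hsp90b1, its HSP90 counterpart, rose by 1.82 ± 0.39 (adjusted p = 0.00572) and Atf4, the factor of the integrated stress response, by 1.49 ± 0.30 (0.00236). Hspb1, a small heat shock protein, was at 222, 144 and 226 CPM against 15.6, 13.9, 22.3, 26.6 and 41.8 CPM (3.04 ± 0.64, adjusted p = 0.00551). Hspa8, the constitutive chaperone of the cytosol, went the other way, at 1472, 2215 and 1974 CPM against 4228, 4287, 3603, 4782 and 5885 CPM (fell by 1.27 ± 0.20, adjusted p = 0.000277). Of 31 p53 target and apoptosis genes, Bax alone rose and Mcl1 alone fell, beside 3.39% and 4.79% of all tested genes. Mcl1, which protects against apoptosis, was at 70.5, 106 and 74.2 CPM against 208, 235, 215, 211 and 247 CPM (fell by 1.42 ± 0.22, adjusted p = 0.000247). Bax rose by 0.95 ± 0.24 (adjusted p = 0.014), not without pair 3 (0.111) nor in the GC-adjusted fit (0.893). Cdkn1a, the cell cycle inhibitor induced by p53, overlapped between the groups at 29.9, 97.8 and 93.9 CPM against 37.5 to 146 CPM.

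Of 22 tested genes of the cleavage and morula stages, 8 fell and 0 rose, with a median of -2.48, or -2.27 with genes at 0 in a group set to the fold that 3 counts allow. Obox6, a homeobox gene of the preimplantation embryo, was at 19.7, 3.57 and 2.56 CPM in the pairs and at 542, 631, 458, 870 and 615 CPM in the morulae. It fell by 6.17 ± 1.10 (adjusted p = 0.00277), and pair 1 kept the highest level of the 3. Trim43b was at 15.3, 43.8 and 5.16 CPM against 402, 284, 339, 462 and 322 CPM (fell by 4.08 ± 0.68, adjusted p = 0.00135). Sox15, a SOX factor that partners with Oct4, was at 15.4, 32.6 and 17.9 CPM against 183, 173, 148, 181 and 211 CPM (fell by 3.03 ± 0.30, adjusted p = 2.84e-06). Sp110, Pramel4, Trim43a and Pramel7 also fell, with log2 fold changes of -2.69, -2.27, -1.47 and -1.40. Trim43c fell by 5.05 ± 1.45 (adjusted p = 0.0437), lost without 6 of the 8 units and in the GC-adjusted fit (0.0678). Obox6 and the Trim43 genes belong to families of near-identical copies, so their single counts are uncertain. Counts of falling members ranged from 7 to 9 when a unit was left out and from 7 to 11 in the other settings.

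**Figure D4:**
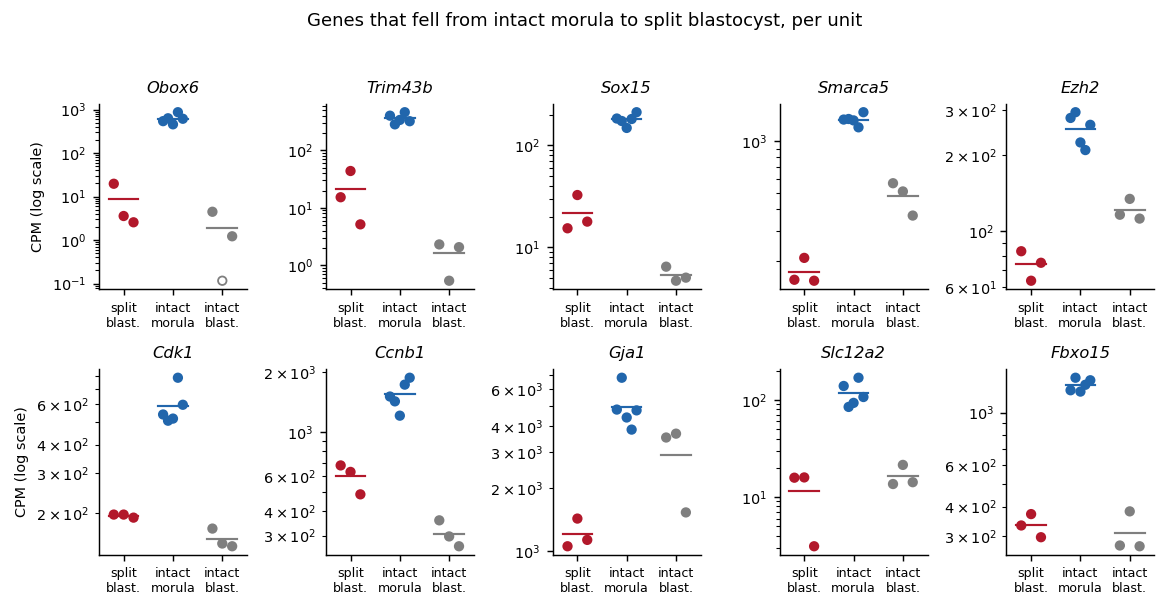
CPM on a log scale for 10 genes that fell, in each unit of split blastocysts (3 summed sister pairs, red), intact morulae (5, blue) and intact blastocysts (3, grey), with a line at each mean. The open circle is a unit with 0 counts drawn at 0.116 CPM, and for all 10 genes every split pair lies below every morula, as with Obox6 at 2.56 to 19.7 against 458 to 870 CPM.

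Of 34 genes listed as having transcripts inherited from the oocyte, 1 rose and 1 fell, beside 3.39% and 4.79% of all tested genes. The GC-adjusted fit gave 0 and 2, and DESeq2 1 and 4. The median was -0.10, or 0 with genes at 0 in a group set to their bound. The list as a whole took 0.723%, 0.769% and 0.572% of counts in the pairs and 1.09% ± 0.0671 in the morulae (SD, n = 5), without overlap (exact permutation test, two-sided, p = 0.0357, the smallest possible, adjusted p = 0.0595). Dppa3 made up most of it, which protects maternal methylation in the zygote, at 6246, 6305 and 4163 CPM against 10361, 12922, 11727, 11154 and 11556 CPM (fell by 1.05 ± 0.18, adjusted p = 0.000532). Khdc3, of the subcortical maternal complex, rose by 1.23 ± 0.35 (adjusted p = 0.0334), a call lost without any unit but morula 4, with adjusted p of up to 0.182, and in the GC-adjusted fit (0.328). Intact 8-cell embryos were at 35.1, 25, 6.17 and 15.2 CPM for Khdc3, below the morulae at 303, 272, 296, 365 and 317 CPM. Its level in morulae was therefore not a remainder from the 8-cell stage.

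Of 41 mitosis and spindle genes, 8 fell and 0 rose (median -0.31), and 7 fell in the GC-adjusted fit. The count of rises depends on the scaling: with library totals alone 5 fell and 2 rose, and on TPM values 5 fell and 3 rose (limma). Cdk1, the kinase that starts mitosis, was at 197, 197 and 191 CPM in the pairs and at 542, 509, 520, 786 and 598 CPM in the morulae. It fell by 1.60 ± 0.24 (adjusted p = 0.000197), with the 3 pairs nearly equal. Ccnb1, its cyclin, was at 677, 628 and 484 CPM against 1506, 1424, 1206, 1729 and 1873 CPM (fell by 1.38 ± 0.25, adjusted p = 0.000948). Cenpe, a kinetochore motor, fell by 1.33 ± 0.17 (adjusted p = 4.8e-05), and Spc25 by 1.32 ± 0.25 (0.00168). Without pair 1 or pair 3, 5 mitosis genes fell.

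Of 31 cyclins, kinases and inhibitors, 3 rose and 5 fell, with a median of 0.09, or 0.30 with genes at 0 in a group at their bound. Ccne2, a cyclin of S phase entry, was at 10.8, 16.2 and 11.3 CPM in the pairs and at 105, 54, 140, 90.8 and 40.3 CPM in the morulae (fell by 2.75 ± 0.57, adjusted p = 0.00341). Ccnd3, a cyclin of G1, was at 118, 81.4 and 178 CPM against 9.91, 10.3, 9.23, 65.7 and 17.8 CPM, where morula 4 was the high one. It rose by 2.48 ± 0.60 (adjusted p = 0.0111), but not without pair 3 (0.0816) nor in the GC-adjusted fit (0.0602). Cdk4, a partner of Ccnd3, rose by 1.09 ± 0.27 (adjusted p = 0.0129), lost without pair 3 (0.0959) and in the GC-adjusted fit (0.147). In that fit 0 of the list rose and 4 fell, and on TPM values (limma) 6 rose and 4 fell. Without pair 3, 0 rose.

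Of 45 DNA replication genes, 5 rose and 3 fell. The rises numbered 2 in the GC-adjusted fit, where 2 fell, and 10 with library totals alone or on TPM values (limma). They numbered 1 without morula 1, morula 3 or pair 3, 2 without pair 1 or pair 2, and 3 without morula 2 or morula 5. Pold2, a subunit of polymerase delta, was at 110, 126 and 172 CPM in the pairs and at 23.6, 6.49, 28.1, 19.2 and 43 CPM in the morulae (2.5 ± 0.42, adjusted p = 0.000591). It kept its call whichever unit was left out. The rises of Gins2, Rpa1, Mcm7 and Mcm5 were each lost without several units, with adjusted p of up to 0.167, 0.167, 0.211 and 0.217. Tyms, which makes thymidylate, fell by 0.92 ± 0.19 (adjusted p = 0.00331). Slbp, which binds histone mRNA, fell by 0.96 ± 0.21 (adjusted p = 0.00484).

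Among the 83 genes for proteins of the cytosolic ribosome, 13 fell and 0 rose, the median was -0.30, and the changes were small, from -0.83 for Rpl9 to -0.45 for Rps29. Rpl9 was at 917, 741 and 739 CPM in the pairs and at 1285, 1712, 1405, 1328 and 1363 CPM in the morulae (fell by 0.83 ± 0.14, adjusted p = 0.000761). Rpl37, Rpl35 and Rpl38 fell by 0.75, 0.71 and 0.68, and each lost its call without pair 3 (adjusted p = 0.0738, 0.0659 and 0.0598). This direction depends on the scaling. With library totals alone 3 genes fell and 5 rose, on TPM values 11 fell and 7 rose (limma), and in the GC-adjusted fit 24 fell. Without pair 3, 2 fell. The share of all ribosomal protein counts was 6.56%, 5.68% and 5.94% in the pairs and 6.43% ± 0.326 in the morulae (SD, n = 5), which overlapped (exact permutation test, two-sided, p = 0.214). Processed copies of these genes make single counts uncertain.

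Of 50 ribosome biogenesis genes, 13 fell and 0 rose. Brix1, of the large subunit, was at 645, 758 and 590 CPM in the pairs and at 2033, 2517, 1894, 2544 and 1604 CPM in the morulae (fell by 1.67 ± 0.19, adjusted p = 1.53e-05). Nop58, of the box C/D particles, fell by 1.53 ± 0.18 (adjusted p = 1.34e-05). Rrn3, which recruits RNA polymerase I, fell by 1.37 ± 0.18 (adjusted p = 4.6e-05). The calls ranged from 10 to 13 when a unit was left out, and 11 genes fell in the GC-adjusted fit. With library totals alone 10 fell and 3 rose, and on TPM values 12 fell and 5 rose (limma).

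Of 34 genes of DNA methylation and chromatin, 7 fell and 0 rose. On TPM values 5 fell and 4 rose (limma), and 1 rose by DESeq2, with library totals alone and with the 2 groups alone. Smarca5, the ISWI remodelling ATPase, was at 156, 209 and 154 CPM in the pairs and at 1328, 1338, 1313, 1197 and 1465 CPM in the morulae. It fell by 2.94 ± 0.19 (adjusted p = 6.19e-09), and no other gene of the lists had a lower adjusted p. Ezh2, the methyltransferase of Polycomb complex PRC2, was at 83.2, 63.6 and 74.9 CPM against 280, 295, 224, 209 and 263 CPM (fell by 1.78 ± 0.20, adjusted p = 1.08e-05). Eed, its partner, fell by 1.5 ± 0.21 (adjusted p = 0.000103), and Kdm5b, a histone demethylase, by 1.60 ± 0.26 (0.000434). These 4 genes stayed called in the GC-adjusted fit and whichever unit was left out, and that fit called 9 down and 1 up.

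Of 38 ligands and receptors, 1 rose and 2 fell, beside 3.39% and 4.79% of all tested genes. The GC-adjusted fit gave the same counts, and on TPM values (limma) 8 rose and 1 fell. Wnt7b, a Wnt ligand, was at 35.4, 31.8 and 40.5 CPM in the pairs and at 2.52, 1.59, 1.54, 3.53 and 1.56 CPM in the morulae (4.06 ± 0.97, adjusted p = 0.0126, and 0.0566 without pair 3). Socs3, which damps LIF signalling, fell by 6.44 ± 1.53 (adjusted p = 0.0101), not without pair 2 (0.0516) or pair 3 (0.0722). Igf2r, an imprinted receptor that clears Igf2, was at 398, 346 and 217 CPM against 1776, 1224, 1381, 1223 and 1627 CPM (fell by 2.17 ± 0.29, adjusted p = 7.56e-05). Phlda2, an imprinted gene that restrains placental growth, was at 54, 166 and 310 CPM against 14.5, 6.16, 10.1, 25.2 and 2.9 CPM. It rose by 3.91 ± 0.91 (adjusted p = 0.0119, and 0.0698 without pair 3), and its pairs spread widely. Ascl2, an imprinted trophoblast factor, was at 4.52, 1.57 and 16.2 CPM and at 0 in all morulae, a call (adjusted p = 0.0413) lost whichever unit was left out. Of 27 imprinted genes and X inactivation genes, 2 rose and 1 fell, beside 3.39% and 4.79% of all tested genes. In the GC-adjusted fit 1 rose and 1 fell. Xist was at 129, 0.0615 and 106 CPM against 0.0587, 4.97, 3.54, 0.262 and 148 CPM, following the Y-linked counts of the embryos.

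Of 42 genes of actin, myosin and matrix adhesion, 3 rose and 1 fell, beside 3.39% and 4.79% of all tested genes. The counts were 0 and 1 in the GC-adjusted fit and 13 and 1 on TPM values (limma). Rap1b, a GTPase of integrin adhesion, was at 117, 155 and 93.3 CPM in the pairs and at 497, 600, 579, 504 and 591 CPM in the morulae (fell by 2.19 ± 0.22, adjusted p = 2.84e-06). Tln1, Actn4 and Pfn1 rose by 1.38, 1.12 and 0.65 on the log2 scale. All 3 lost their calls in the GC-adjusted fit, where Pfn1 was at -0.05, and when several single units were left out (adjusted p of up to 0.0935, 0.124 and 0.111). Hippo pathway genes (0 of 27 called), amino acid transporters (0 of 21) and hyaluronan genes (0 of 8) gave no call in the 5-group fit, and 1 of 22 genes of hatching and trophoblast differentiation rose (Ascl2). Unadjusted, 3762 of all tested genes had p under 0.05. DESeq2 called 2 Hippo genes, 2 transporters and 1 hyaluronan gene as rising.

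**Figure D5:**
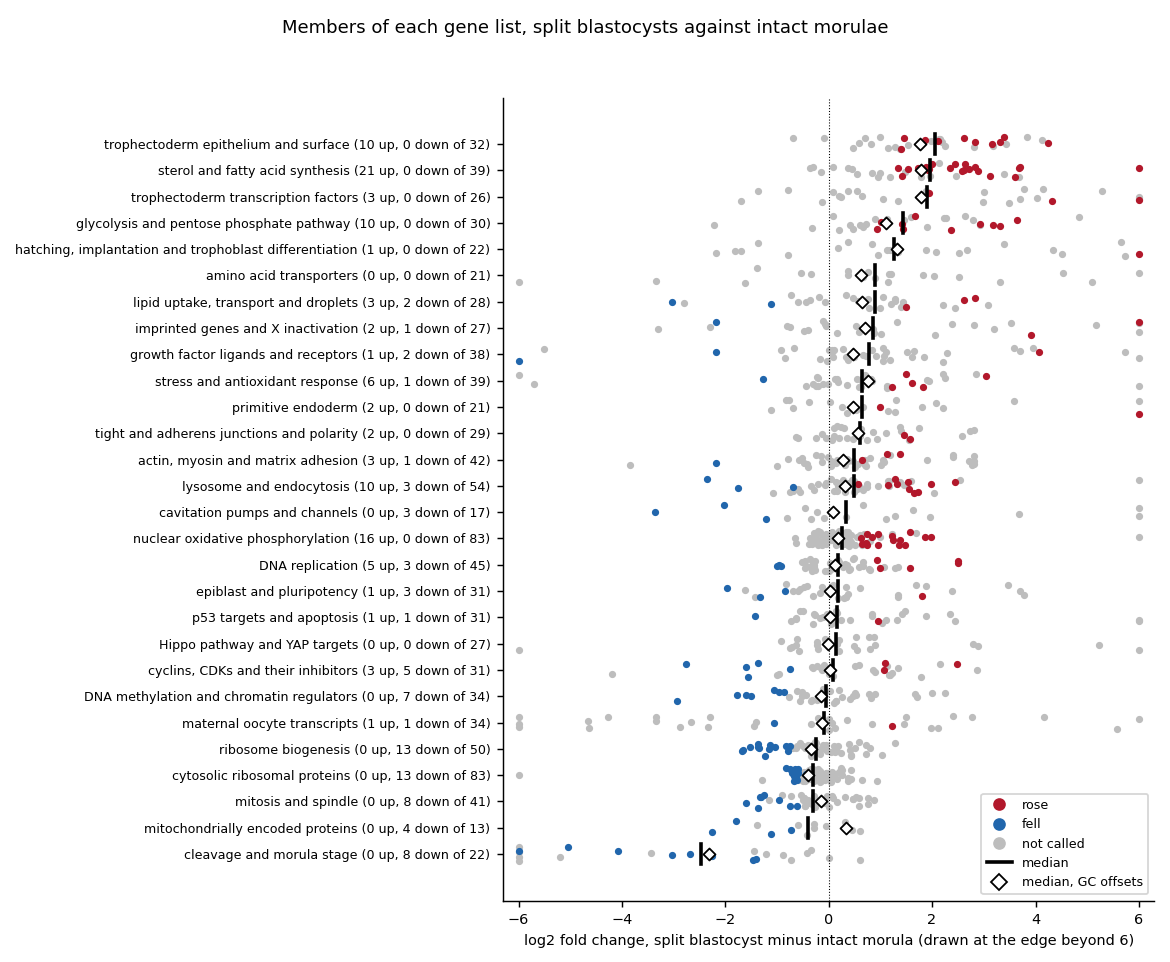
Log2 fold change (split blastocyst minus intact morula) of every tested member of 28 gene lists, red where it rose, blue where it fell and grey where it did not pass, with the median as a bar and the median of the GC-adjusted fit as a diamond. Trophectoderm epithelium (median 2.05) and sterol synthesis (1.95) lie at the top, and cleavage and morula genes (-2.48) at the bottom.

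The largest rises by a fixed rule (12 genes with non-overlapping units) included genes at or near 0 in morulae. Adh1, an alcohol dehydrogenase that can oxidise retinol, was at 243, 276 and 50.5 CPM in the pairs and at 0 in all 5 morulae, at least 1635-fold higher against a floor of 3 counts over a library of median size (adjusted p = 3.16e-06). Tmprss2, a membrane serine protease of epithelia, was at 31.3, 23.8 and 46 CPM against 0.293, 0, 0.461, 0 and 0.116 CPM (7.58 ± 0.97, adjusted p = 0.000143). Tuba1a, an alpha tubulin, was at 93.8, 49 and 145 CPM against 3.17, 0.53, 0.384, 0.654 and 2.9 CPM (5.96 ± 0.96, adjusted p = 0.000387). Lurap1l rose by 6.18 ± 1.38 and Camk1, a calcium-dependent kinase, by 4.03 ± 0.94 (adjusted p = 0.00642 and 0.00903). These 5 kept their calls whichever unit was left out. Socs1, a brake on cytokine signalling, rose by 4.19 ± 1.08 (adjusted p = 0.0169), not without pair 1 (0.0799) or pair 3 (0.0649). Anxa6 and Wnk2 passed (adjusted p = 0.0398 and 0.0425) and lost their calls without most units, with adjusted p of up to 0.123 and 0.116. The rest of the 12 were Gata2, Id2, Sparc and Wnt7b.

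Among the 12 largest falls, Rftn1, a protein of lipid rafts, was at 0 in all pairs and at 11.4, 3.71, 11.5, 1.57 and 11.7 CPM in the morulae, at least 68.7-fold lower (adjusted p = 0.000336). Tmem267 was likewise at 0 against 5.36 to 12.6 CPM, at least 76.4-fold lower (adjusted p = 0.000165). Cux2, a homeobox factor, was at 2.56, 3.35 and 0.41 CPM against 45.3, 45.2, 37, 52.9 and 32.5 CPM (fell by 4.34 ± 0.66, adjusted p = 0.000245). Tnfsf13b, a cytokine of the TNF family, fell by 5.03 ± 1.11 (adjusted p = 0.00914), not without pair 3 (0.0673). Bex6, Septin3, Tlcd4 and Nppb also fell, with log2 fold changes of -4.10, -4.95, -4.65 and -4.36. Each lost its call without several units, with adjusted p of up to 0.144, 0.0888, 0.0758 and 0.164. Obox6, Trim43b, Trim43c and Socs3 completed the 12.

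Markers of cells that could come along with an embryo gave no call among 3 tested genes of cumulus cells, 10 of sperm, 5 of blood and immune cells and 4 of fibroblasts. Their summed levels were 13.7 to 17.5 CPM in the pairs and 8.27 to 23 CPM in the morulae for cumulus cells, and 24.2 to 34.9 against 16.9 to 30.7 CPM for sperm. Blood markers summed to 27 to 42.6 against 6.36 to 22 CPM and fibroblast markers to 13.1 to 29.6 against 0.821 to 11.8 CPM, higher in every pair than in any morula. Of 13 listed fibroblast markers, only those 4 passed the filter on low counts. Among the rest, Col1a1 had 342 counts in all split blastocysts and 0 in the morulae. Postn had 7 and 0, Col6a1 0 and 6, and Acta2 0 and 1. The part of these markers in the results was not tested.

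Split blastocysts were also set beside intact blastocysts. That comparison shares the split embryos with the one above, so the values are given side by side only. Against intact blastocysts, 543 genes were higher (3.42%) and 209 lower (1.32%) in split blastocysts, and intact blastocysts had 496 genes higher (3.12%) and 1184 lower (7.46%) than morulae. Among trophectoderm factors, 0 differed between split and intact blastocysts. Gata2 was at 33.7, 27.2 and 26.5 CPM in intact blastocysts, Cdx2 at 18.3, 12.5 and 18.3 CPM and Id2 at 883, 660 and 680 CPM. Krt18 was at 718, 588 and 1165 CPM, below all split pairs, without passing (1.66, adjusted p = 0.172). Pdpn, a surface protein of the trophectoderm, was lower in split than in intact blastocysts (-2.44, adjusted p = 0.0314).

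Of 39 sterol and fatty acid genes, 3 were higher in split than in intact blastocysts. These were Fdft1 (2.90, adjusted p = 5.23e-05), Idi1 (2.31, adjusted p = 0.003) and Ebp (2.28, adjusted p = 0.00349). Lss was at 132, 48.4 and 58 CPM and Mvd at 76.1, 22.4 and 74.6 CPM in intact blastocysts, between morulae and split pairs. Of glycolytic genes, 6 of 30 were higher, among them Eno1 (2.80, adjusted p = 0.00019), which was at 31.9, 68.5 and 76.7 CPM in intact blastocysts and so near the morulae. Lysosome genes were higher in 17 of 54, stress genes in 9 of 39, replication genes in 10 of 45 and ribosomal protein genes in 12 of 83. In the GC-adjusted fit 15 lysosome, 9 stress, 13 replication and 8 ribosomal protein genes were higher, and 1 ribosomal protein gene was lower. That fit called 4 sterol and 4 glycolytic genes higher. Of 83 nuclear genes of oxidative phosphorylation, 9 were higher in split than in intact blastocysts and 0 lower. In the GC-adjusted fit 9 of 81 were higher and 2 lower. From intact morulae to intact blastocysts, 6 of the 83 rose and 6 fell. Cyc1 was at 222, 191 and 276 CPM in intact blastocysts (1.51, adjusted p = 0.00013), near the morulae. Ndufv1 was at 58, 49.4 and 75.4 CPM (1.69, adjusted p = 0.00417), also near them. The median log2 difference of this comparison ran from -0.71 in transcripts under 40% GC to 0.44 over 55%.

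Several genes that had fallen from the morula were lower still in intact blastocysts. Sox15 was at 6.48, 4.72 and 5.06 CPM in intact blastocysts and was higher in split ones (2.02, adjusted p = 0.000381). Trim43b was at 2.31, 0.539 and 2.07 CPM there (3.70 higher in split, adjusted p = 0.00688), Ctsc at 228, 196 and 102 CPM (1.56, adjusted p = 0.00026) and Brix1 at 335, 396 and 228 CPM (1.06, adjusted p = 0.00303). Others were lower in split blastocysts. Smarca5 was at 567, 508 and 368 CPM in intact blastocysts (-1.48, adjusted p = 6.22e-05), Rap1b at 209, 248 and 188 CPM (-0.83, adjusted p = 0.034) and Gja1 at 3513, 3666 and 1535 CPM (-1.27, adjusted p = 0.0238). The call of Gja1 was lost in the GC-adjusted fit, where 0 of 17 cavitation genes differed between split and intact blastocysts. mt-Cytb was at 17242, 19400 and 10961 CPM, between morulae and split pairs (-1.39, adjusted p = 0.00105). Of 13 mitochondrially encoded genes, 8 were lower in split than in intact blastocysts and 0 higher, and 2 were lower in the GC-adjusted fit. From intact morulae to intact blastocysts, 4 of the 13 rose and 2 fell. Their share of counts in intact blastocysts was 3.47% to 4.85%, overlapping the morulae at 2.7% to 5.06%. In intact blastocysts mt-Nd5 was at 1803, 1888 and 1490 CPM (-1.27, adjusted p = 0.000535). There mt-Atp6 was at 56.5, 111 and 81.5 CPM (-1.49, adjusted p = 0.00669). Pou5f1 was at 6.92, 4.25 and 10.8 CPM in intact blastocysts, which overlapped the morulae, and was higher in split blastocysts (3.02, adjusted p = 0.024). The 3 summed pairs of split morulae were at 64.3, 69 and 41.7 CPM for Pou5f1, overlapping the split blastocysts. Some falling genes were already below every intact morula in those pairs. Smarca5 was at 891, 657 and 671 CPM there and Gja1 at 2931, 2746 and 1964 CPM. Rap1b, at 216, 191 and 113 CPM, and mt-Atp6, at 24.7, 29.3 and 36.5 CPM, also overlapped the split blastocysts. For Sox15, Trim43b, Ctsc, Brix1, mt-Cytb and mt-Nd5, split morulae overlapped intact morulae.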

How the data were processed

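Single embryos were lysed and made into Smart-seq2 libraries primed with oligo(dT), per the labels' protocols. The deposited counts per gene were used as the authors left them. The submitters' processing notes name HISAT2 and featureCounts on the build GRCm39, together with cutadapt, FastQC, MultiQC and edgeR, with versions, annotation and strand setting not given in the sources used here. The authors' deposited TPM table served for alternatives only. Depth was 13439059 to 25228658 counts per library in the 11 embryos compared, so counting error is small except for genes near 0, and intervals and floors cover counting error only.

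Sister counts were summed, which gave 18 units in 5 groups. Genes passing filterByExpr were tested with edgeR 4.0.16 (TMM scaling, robust quasi-likelihood fit over all 5 groups) in R 4.3.3, with Benjamini-Hochberg adjustment over all 15875 genes and a threshold of 0.05. Shares of counts were compared by exact permutation tests. Alternatives used limma 3.58.1, DESeq2 1.42.0 and other scalings, filters and units, and the fit with GC offsets (lowess on the GC of the longest transcript) was added after seeing the data. The fit was also run on simulated counts, drawn independently for each unit without sister pairs or sex differences. Its outcome is not given and is not used as support here. The members and gene lists were chosen with earlier results of these data known. Named genes were the 12 largest called rises and falls with units not overlapping and mean log2 CPM of at least 3, a panel of 25 lineage genes, and up to 4 called members in each direction of each list. The 3-count floor for genes at 0 corresponds to 0.116 CPM. Promoter windows are RefSeq's, in GRCm38.p6. A few genes are not reported here.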

Additional observations from a re-analysis of the deposited data

Results flagged for a closer look

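In 260 series of CPM values (130 named genes, each in the 5 morulae and in the 6 split blastocysts taken singly), 21 had 1 embryo apart from the rest by Dixon's criterion, 15 in morulae and 6 in split blastocysts. Chance gives about 1 in 20 for independent, normally distributed values. The split blastocysts were sister pairs and CPM was not transformed, so that rate is no exact yardstick here.

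Morula 4 was the highest for Ccnd3 (65.7 CPM, next 17.8), Eomes (9.29, next 1.64), Klf2 (39.3, next 14.2) and Socs3 (12.1, next 3.34). Morula 5 was the highest for Xist (148, next 4.97), Anxa6 (4.23, next 0.0587), Actn4 (173, next 92) and Nop58 (1042, next 759). Morula 2 was the highest for Eed (722, next 505), Hsp90b1 (177, next 123), Pdgfra (4.97, next 0.984), Rpl9 (1712, next 1405) and Gata2 (0.0663, a single count, the others at 0). Morula 1 was the highest for Gata4 (3.81, the others at 0) and Trim43c (25.8, next 7.36).

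Among split blastocysts, embryo 1 of pair 1 was the highest for Cldn7 (544 CPM, next 339) and Trim43c (0.662, next 0.292), and embryo 2 of pair 1 for Septin3 (2.45, next 0.357) and Socs3 (0.182, next 0.0468). Embryo 2 of pair 2 was the highest for Eed (256, next 179), and embryo 1 of pair 2 the lowest for Gapdh (16, next 23.4).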

How the results depend on the processing

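With replicate numbers as a replicate block, which the labels give only as numbers and which therefore pair no embryos, 370 genes rose and 604 fell. Leaving out 1 unit gave 201 to 448 rising and 349 to 700 falling genes, 408 to 740 genes called between split and intact blastocysts and 1083 to 1553 between intact blastocysts and morulae. Library totals alone gave 831 rising and 500 falling genes. DESeq2 gave 1024 and 1267 (1383 and 2572 called in the other 2 comparisons), and the compared groups alone 1155 and 1154 (2037 between split and intact blastocysts). limma-voom gave 1194 rising genes. TPM gave 1720 rising with a pseudocount of 1, 1256 with 0.1 and 1827 with all genes of the table (3334, 2658 and 3510 called between intact blastocysts and morulae). GC offsets gave 321 rising genes, and 225 rising and 438 falling with the replicate block. No called gene was called in the opposite direction in any of these settings. The cause of these shifts was not tested.

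Of 111 named genes called, 56 kept their call in every alternative and 55 lost it in at least 1. Leaving out pair 3 ended 46 of the calls, pair 2 25, pair 1 24 and single morulae 12 to 16. Among named genes, signs turned for 7 that were not called and for Pfn1 (-0.05 with GC offsets, -0.09 with the block added). Cgn turned to 0.10 with library totals, 0.06 with blastomere 1 alone, 0.45 with the block, 0.13 on TPM and 0.01 without morula 5 (lowest with 1 unit left out -0.39). Fgf4 turned to 0.06 with library totals, 0.37 with voom, 0.11 with blastomere 1, 0.65 or 0.69 on TPM, 0.55 without morula 4 and 0.04 without pair 1 (lowest -0.43). Klf4 turned to 0.11 with library totals, 0.01 with the block, 0.09 on TPM, 0.06 without morula 5 and 0.03 without pair 1 (lowest -0.38). Gata4 turned to -0.02 with at least 5 CPM, -0.65 with blastomere 2, -0.30 without morula 2, 4 or 5, -0.29 without morula 3, -0.09 without pair 1, -0.77 without pair 3, -0.60 with GC offsets and -0.36 with the block added, and was at 7.36 without morula 1. Cdkn1a turned to 0.04 with blastomere 1 and 0.08 without pair 1 (lowest -0.55), and Klf2 to 0.08 without morula 4 (lowest -1). Tfap2c turned to -0.01 without morula 1, -0.03 without morula 5, -0.18 without pair 2, -0.26 with GC offsets and -0.07 with the block added (highest 0.36, without morula 4). Depth limits only genes near 0 counts.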
